A study of Homo sapiens with 2 samples.

Results

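The genes described here are 10 known transcriptional targets of STAT5 in blood cells, among them the serine/threonine kinase genes PIM1, PIM2 and PIM3. CISH, SOCS1, SOCS2 and SOCS3 encode feedback inhibitors of cytokine signalling, CCND2 and CCND3 encode D-type cyclins, and OSM encodes the cytokine oncostatin M. They were taken by name from a table of 36814 gene start windows, and each of the 10 names matched 1 window. Nascent RNA was measured by PRO-seq (precision run-on sequencing, in which engaged RNA polymerases add biotinylated nucleotides to their transcripts) in the cell line K562, which derives from a human chronic myelogenous leukaemia. One library came from cells kept in 0.1% DMSO, a drug solvent, for 1 h, and 1 from untreated cells, so each treatment had 1 library and there was no replicate check. The DMSO library held 4154920 reads and the untreated library 2136291 reads.

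STAT5 is a latent transcription factor that is phosphorylated by JAK kinases downstream of cytokine receptors, pairs up, and binds the DNA motif TTCNNNGAA. In chronic myelogenous leukaemia the BCR-ABL fusion kinase keeps STAT5 active without a cytokine. PIM kinases need no regulatory subunit, so their activity follows their abundance, and they promote survival and growth. CISH and the SOCS proteins bind phosphorylated receptors or JAKs through an SH2 domain and close a negative feedback loop on the pathway that induces them. D-type cyclins activate CDK4 and CDK6 at the start of the cell cycle, and oncostatin M signals through receptors that contain the IL6ST subunit.

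How much of each gene could be read differed among the 10. Each window covered 6000 bases, centred on the gene's annotated start on hg38 and reaching 3000 bases each way, and reads in bases shared by windows were absent from the counts: all 1154 windows with no base of their own held 0 reads. The windows of PIM1, PIM2, PIM3, SOCS1 and OSM shared no base, so 5 of the 10 genes were measured over the full 6000 bases. SOCS2 had 1955 bases of its own, SOCS3 375, CISH 312, CCND3 155 and CCND2 none. None of these partial stretches reached the start of its gene. A low count of CISH, SOCS2, SOCS3, CCND2 or CCND3 therefore says little about that gene, and levels are compared between genes only per kb of unshared bases. The counts also do not separate strands, and exons and introns were not used here.

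**Figure D1:**
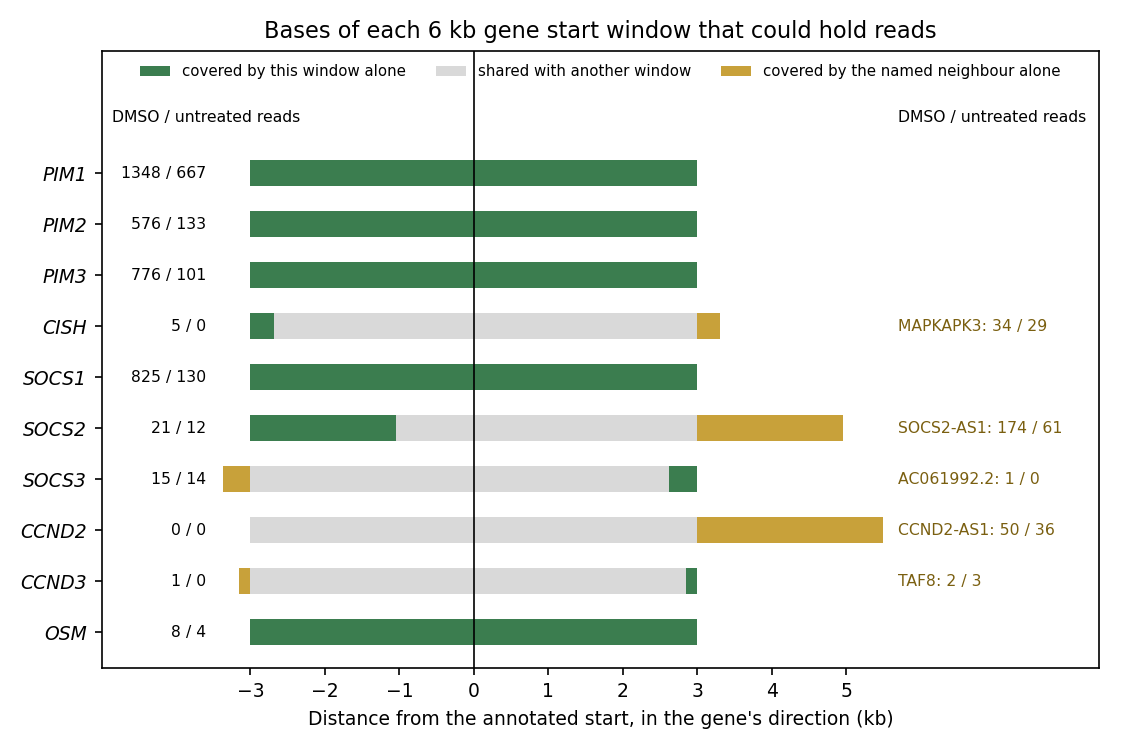
Map of the 6 kb window of each gene, with distance from the annotated start in kb on the horizontal axis and the gene's own direction to the right. Green marks bases covered by that window alone, grey bases shared with another window, and yellow bases covered by the named neighbour alone; DMSO and untreated reads of each window stand on the left and those of the neighbour on the right. PIM1, PIM2, PIM3, SOCS1 and OSM are green throughout, and CCND2 has no green base.

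As a check of the cell line, 13 of 16 erythroid marker genes reached 1 CPM (read counts scaled to the same library total) in both libraries, while 3 of 15 monocytic, granulocytic and lymphoid markers did. Erythroid windows held 4147 DMSO and 1390 untreated reads in sum. HBE1 had none in either library, but its window had no base of its own and could not be read. The monocytic, granulocytic and lymphoid windows held 349 and 87 reads, with CD3D at 0 in the DMSO library and 7 of the 15, CD14 and CSF1R among them, at 0 in the untreated library. The 18 neural marker windows held 4093 DMSO reads and 11 untreated reads. CDR1 gave 2985 of the DMSO reads, GFAP 514, MT3 188, NTRK2 119 and SYT1 80, each with 0 untreated reads. In the untreated library 15 of the 18 were at 0. TUBB3 was at 0 in both libraries, its window likewise having no base of its own. The part of this difference in the ratios below was not tested. Ribosomal RNA windows took 42.2% of the DMSO and 71.5% of the untreated reads. CPM values are scaled to library totals and so do not compare the libraries. For that comparison counts were scaled by TMM factors and each log2 DMSO/untreated ratio is given relative to the median of the 6591 windows past a floor of a mean of 5 CPM and 100 reads. Equal standing with the median window means 4.72 DMSO reads per untreated read. Intervals are exact 95% intervals and cover counting error only.

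PIM1, PIM2, PIM3 and SOCS1 were among the most densely read gene starts of these cells, and OSM had few reads. Of the 10 genes 7 reached 1 CPM in both libraries, against 34.7% of all windows; among those with at least 1 kb of their own it was 6 of 6, against 42.7% of such windows. The floor was passed by 4 of the 10, namely PIM1, PIM2, PIM3 and SOCS1, against 17.9% of all windows. Few reads suffice for 1 CPM, since 3 reads make 0.722 CPM in the DMSO and 1.40 CPM in the untreated library. In bulk cells a gene read in fewer cells and one read less in each cell cannot be told apart.

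PIM1, a kinase of survival and cell cycle proteins, had the most reads per kb of the 9 genes with bases of their own, in both libraries. Its window (chromosome 6, 37167152 to 37173151) held 1348 DMSO reads and 667 untreated reads, or 54.1 and 52.0 CPM per kb. Of 28069 windows with at least 1 kb of their own, outside ribosomal and mitochondrial windows, 132 were read more densely than PIM1 with DMSO and 24 in untreated cells. Relative to the median window PIM1 stood at a log2 DMSO/untreated ratio of -1.22 (interval -1.36 to -1.09), which is 2.33-fold lower with DMSO. The CPM values are scaled to totals that include ribosomal RNA reads, whereas the ratio is set against the median window.

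PIM2 (X chromosome, 48916025 to 48922024), whose window touches the RefSeq span of OTUD5 at its outermost base, held 576 DMSO reads and 133 untreated reads, 23.1 and 10.4 CPM per kb. Its ratio was -0.12 (interval -0.40 to 0.16), so it moved with the median window within counting error. PIM3 (chromosome 22, 49957768 to 49963767), whose window also holds the microRNA gene MIR6821, had 776 DMSO reads and 101 untreated reads, 31.1 and 7.88 CPM per kb. Its ratio was 0.70 (interval 0.40 to 1.02), or 1.63-fold higher with DMSO. The PIM genes thus lay on both sides of the median window, with intervals of PIM1 and PIM3 that do not overlap.

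The make-up of PIM transcription needs no scaling between libraries, because the 3 windows have equal length. PIM1 gave 49.9% of the 2700 PIM reads in the DMSO library (interval 48.0 to 51.8) and 74.0% of the 901 PIM reads in the untreated library (interval 71.0 to 76.9). PIM3 gave 28.7% with DMSO (27.0 to 30.5) and 11.2% in untreated cells (9.22 to 13.5), and PIM2 gave 21.3% (19.8 to 22.9) and 14.8% (12.5 to 17.2). PIM1 stayed ahead of the other PIM genes in both libraries, while the order of PIM2 and PIM3 differed. PIM2 was read at 0.742 times PIM3 with DMSO (interval 0.665 to 0.828) and at 1.32 times PIM3 in untreated cells (1.01 to 1.72). These are shares in 1 library each, and their spread between cultures is unknown.

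**Figure D2:**
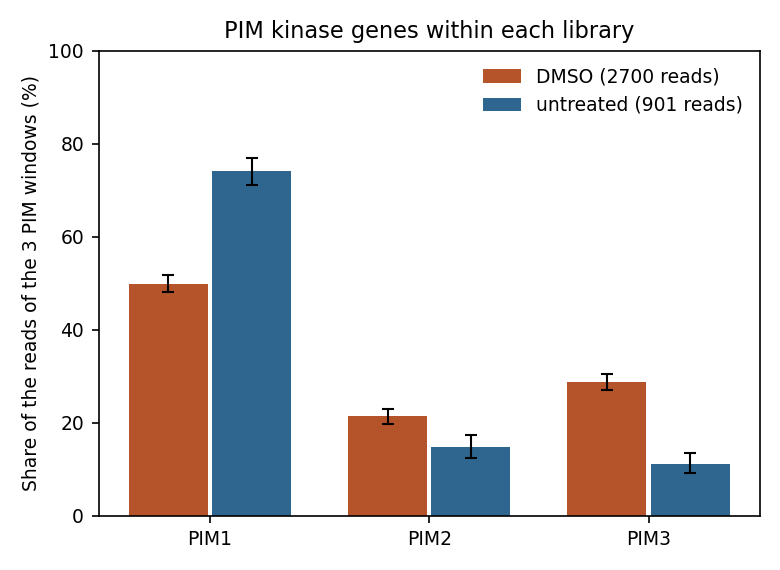
Share of each PIM gene in the reads of the 3 PIM windows, in percent on the vertical axis, with DMSO and untreated libraries side by side; error bars are exact 95% binomial intervals. PIM1 takes 49.9% with DMSO and 74.0% in untreated cells, and PIM3 28.7% and 11.2%.

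The PIM promoters are shown because the 3 genes differed in reads. RefSeq sequences (GRCh38.p14) from 250 bases before to 50 after the start were held for 7 of the 10 genes: PIM1, PIM2, PIM3, CISH, SOCS1, SOCS3 and CCND3. The PIM1 promoter (chr6:37169902-37170201, plus strand) is 79.7% G or C and holds 39 CpG, that of PIM3 (chr22:49960522-49960821, plus strand) 81.3% and 56, and that of PIM2 62.3% and 23, against medians of 58.7% and 14 over 35116 promoters. The GC box GGGCGG, searched on both strands and found in 15786 of the 35116 promoters, occurs 4 times at PIM1, 5 times at PIM3 and once at PIM2. Neither the STAT motif TTCNNNGAA nor its form with a spacer longer by 1 base was found in these 3 sequences. Capitals mark the GC boxes, in either orientation.
PIM1: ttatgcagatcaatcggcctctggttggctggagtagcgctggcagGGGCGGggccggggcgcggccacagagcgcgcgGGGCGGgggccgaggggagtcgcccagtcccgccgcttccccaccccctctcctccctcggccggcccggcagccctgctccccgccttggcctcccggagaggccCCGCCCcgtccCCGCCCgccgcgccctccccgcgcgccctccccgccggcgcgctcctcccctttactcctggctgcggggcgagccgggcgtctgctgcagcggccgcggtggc
PIM3: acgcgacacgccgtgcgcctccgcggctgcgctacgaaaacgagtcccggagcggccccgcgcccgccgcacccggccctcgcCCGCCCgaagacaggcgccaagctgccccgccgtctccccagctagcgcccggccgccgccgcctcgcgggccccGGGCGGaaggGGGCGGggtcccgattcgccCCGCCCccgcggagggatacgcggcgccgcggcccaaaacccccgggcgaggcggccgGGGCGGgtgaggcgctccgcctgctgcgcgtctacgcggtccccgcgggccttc

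SOCS1, which inhibits JAK kinases directly, was the only one of the 4 feedback inhibitor genes measured over its full window. Its window (chromosome 16, 11253201 to 11259200), which overlaps the span of the long noncoding gene LOC105371082, held 825 DMSO reads and 130 untreated reads, 33.1 and 10.1 CPM per kb. With DMSO, 391 of the 28069 windows were denser, and 786 in untreated cells. The ratio of SOCS1 was 0.43 (interval 0.16 to 0.71), or 1.34-fold higher with DMSO. SOCS1 and PIM3 had overlapping intervals of level in each library: 30.9 to 35.4 against 29.0 to 33.4 CPM per kb with DMSO, and 8.47 to 12.0 against 6.42 to 9.57 in untreated cells. These are levels of whole windows, of which 1788 bases lie inside the RefSeq span of SOCS1 and 2996 inside that of PIM3. The SOCS1 promoter (chr16:11256155-11256454, minus strand, printed in the gene's direction) is given for comparison with CISH below; it holds 3 GC boxes, in capitals, and neither form of the STAT motif.
SOCS1: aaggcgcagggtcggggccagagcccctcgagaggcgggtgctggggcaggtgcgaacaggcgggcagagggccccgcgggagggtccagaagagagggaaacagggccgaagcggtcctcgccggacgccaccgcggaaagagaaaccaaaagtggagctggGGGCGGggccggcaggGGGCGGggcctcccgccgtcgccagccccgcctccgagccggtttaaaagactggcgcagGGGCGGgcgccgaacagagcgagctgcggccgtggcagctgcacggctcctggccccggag

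CISH, a feedback inhibitor of STAT5 signalling, carried the STAT motif in its promoter but could hardly be counted in its own window. The CISH promoter (chr3:50611725-50612024, minus strand, printed in the gene's direction) holds TTCNNNGAA 4 times. The motif reads the same on both strands in its fixed letters. It occurs at least once in 7.66% of the 35116 promoters and 4 or more times in 7 of them (0.0199%), CISH and BCL6 included; some of the 7 are alternative starts of 1 gene or neighbours. The 4 copies are TTCCTGGAA, TTCTTGGAA, TTCTAGGAA and TTCCGGGAA, which start 241, 230, 129 and 112 bases before the RefSeq start (capitals). Among the 7 members with a promoter sequence, CISH was the only one with the motif in this stretch, and absence of these letters elsewhere says nothing of STAT5 binding.
CISH: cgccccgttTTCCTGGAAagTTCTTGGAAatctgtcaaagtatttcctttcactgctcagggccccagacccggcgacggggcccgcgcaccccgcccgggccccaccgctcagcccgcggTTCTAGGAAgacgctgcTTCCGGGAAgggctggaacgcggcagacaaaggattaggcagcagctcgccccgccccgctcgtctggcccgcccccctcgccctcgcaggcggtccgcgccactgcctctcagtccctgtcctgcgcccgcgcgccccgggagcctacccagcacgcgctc

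The window of CISH (chromosome 3, 50608832 to 50614831) overlaps that of MAPKAPK3, which starts on the opposite strand, and its own 312 bases lie upstream of the start, at -3000 to -2689. They held 5 DMSO reads and 0 untreated reads, where the exact interval of a count of 0 reaches up to 1.73 CPM. These bases lie outside the RefSeq span of CISH and inside that of MAPKAPK3, and no fold is given for so few reads. The 312 bases that belong to the MAPKAPK3 window alone (50608520 to 50608831) lie outside the RefSeq span of MAPKAPK3 and inside that of CISH, 3000 to 3311 bases downstream of its start. They held 34 DMSO reads and 29 untreated reads, or 109 and 92.9 reads per kb, where PIM1 had 225 and 111. Counts listed under the name MAPKAPK3 thus fell within CISH. Their ratio was -1.99 (interval -2.77 to -1.24).

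SOCS2, a regulator of growth hormone signalling in mice, had 21 DMSO reads and 12 untreated reads in its 1955 own bases (chromosome 12), upstream of the start at -3000 to -1046. These bases lie outside the RefSeq span of SOCS2 and inside that of SOCS2-AS1, and their ratio was -1.40 (interval -2.52 to -0.27). The 1955 own bases of the SOCS2-AS1 window (93572814 to 93574768) lie inside the span of SOCS2, 3000 to 4954 bases downstream, and beyond the RefSeq span of SOCS2-AS1. They held 174 DMSO reads and 61 untreated reads, 89.0 and 31.2 reads per kb, and passed the floor with a ratio of -0.72 (interval -1.15 to -0.28). This stretch held 8.29 times as many reads per kb as the one upstream with DMSO, and 5.08 times as many in untreated cells.

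SOCS3, which inhibits signalling by receptors of the interleukin-6 family, had 15 DMSO reads and 14 untreated reads in 375 bases near its far end (chromosome 17, 78357078 to 78357452), 2625 to 2999 bases downstream. That is 40.0 and 37.3 reads per kb, or 9.63 CPM per kb with DMSO (interval 5.39 to 15.9) and 17.5 in untreated cells (9.55 to 29.3). The ratio was -2.09 (interval -3.29 to -0.98). The neighbouring window AC061992.2, on the other side of the start, held 1 DMSO read and 0 untreated reads in 375 bases. Per kb of own bases SOCS1 made up 67.3% of the reads of the 4 inhibitor genes with DMSO and 33.3% in untreated cells, and SOCS3 19.6% and 57.3%, but these stretches lie at different distances from the start and do not rank the genes.

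**Figure D3:**
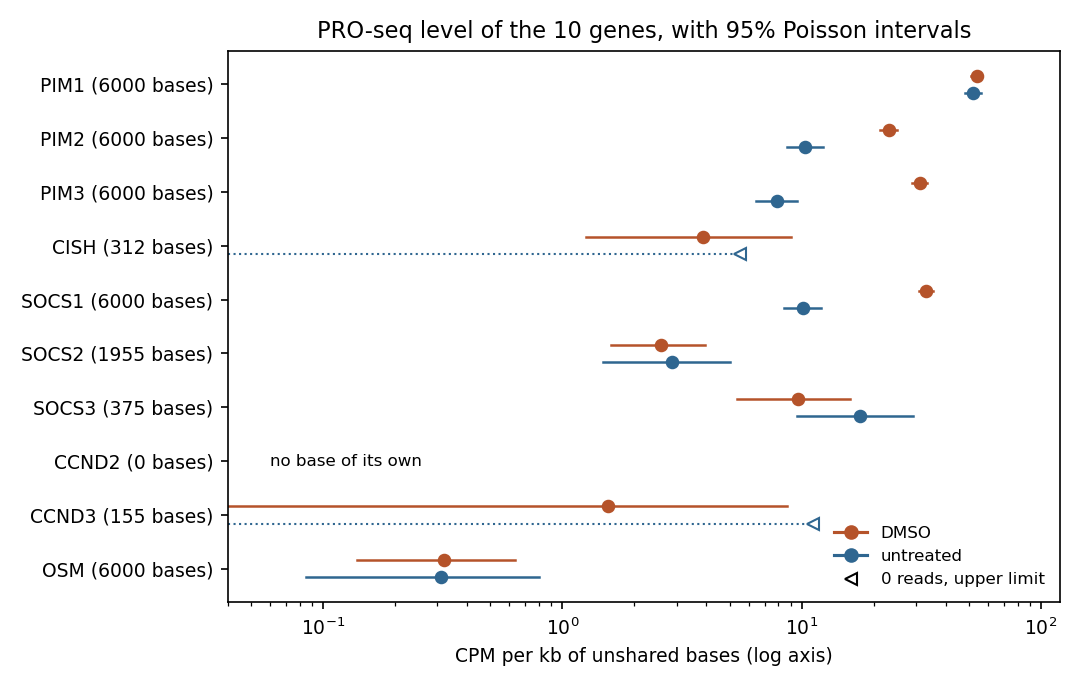
Level of each gene in CPM per kb of unshared bases (log axis), DMSO above untreated, with exact 95% Poisson intervals; open triangles give the upper limit where 0 reads were counted, and the bases behind each value stand beside its name. PIM1 lies highest at 54.1 with DMSO and 52.0 in untreated cells, OSM lies at 0.321 and 0.312, and the levels of the 2 libraries are not on a common scale.

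The D-type cyclin genes could not be read at the starts on which their windows are centred. CCND2 (chromosome 12, 4270762 to 4276761) had no base of its own and held 0 reads in each library. The 2491 own bases of the CCND2-AS1 window (4276762 to 4279252) lie inside CCND2, 3000 to 5490 bases downstream, and outside the RefSeq span of CCND2-AS1. They held 50 DMSO reads and 36 untreated reads, 20.1 and 14.5 reads per kb, with a ratio of -1.75 (interval -2.41 to -1.10). CCND3 (chromosome 6, 42047358 to 42053357) had 1 DMSO read and 0 untreated reads in 155 bases, since its window overlaps that of TAF8. RefSeq also lists starts of CCND3 at 41941808 and 41939205, which lie in no window. Further inside CCND3, 17305 to 23304 bases downstream, the window named AL513008.1 (42027053 to 42033052) held 86 DMSO reads and 22 untreated reads, 14.3 and 3.67 reads per kb. RefSeq lists only CCND3 over that window, and its ratio was -0.27 (interval -0.96 to 0.48). The window is centred on the annotated start of AL513008.1, on the opposite strand to CCND3. Since strands are not separated, its reads cannot be assigned to either gene. It also lies upstream of the further CCND3 starts and so does not cover transcripts from them. By these stretches both cyclin genes had reads within their spans in both libraries, at fewer per kb than the stretch inside CISH. The stretches lie at different distances from the start and do not rank the genes.

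OSM (chromosome 22, 30263852 to 30269851) was the lowest of the genes measured in full. It held 8 DMSO reads and 4 untreated reads over 6000 bases, 0.321 and 0.312 CPM per kb, and 51.3% of windows were denser with DMSO and 41.3% in untreated cells. Its ratio of -1.17 has an interval from -3.14 to 0.94, so no difference was detectable at this depth. PIM1 held 168.5 times as many reads as OSM with DMSO over windows of equal length (interval 85.3 to 391), and 166.8 times as many in untreated cells (64.8 to 614). Among genes of the oncostatin M receptors and their signalling, STAT3 had 165 DMSO and 26 untreated reads (ratio 0.42, interval -0.17 to 1.08), IL6ST had 2 and 0 in 144 own bases, and LIFR and IL6R 1 and 0 each. OSMR and LIF were at 0, each with under 1 kb of its own bases.

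Between the libraries the genes past the floor lay on both sides of the median window. None of the 4 was at least 2-fold higher with DMSO, where 7.04% of windows past the floor were, and 1 of the 4, PIM1, was at least 2-fold lower, where 7.97% were. The interval of PIM1 lay wholly past 2-fold, as it did for 2.78% of windows. The median ratio of the 4 was 0.15, with 2 of them below the median window, which by construction stands at 0. A ratio lower than that of PIM1 was found in 4.28% of the 6591 windows. Among windows with fewer reads, the own bases of SOCS3 and the stretches inside CISH and CCND2 stood more than 2-fold lower with DMSO, as did the bases upstream of SOCS2, which lie in SOCS2-AS1. Of all windows with 20 to 99 reads, as these had, 23.1% stood at least 2-fold lower, around a median of -0.31. The stretches inside SOCS2, at -0.72, and inside CCND3, at -0.27, held more reads and passed the floor. Neither stood 2-fold lower, where 7.97% of windows past the floor did. The TIGAR window, of whose 6000 bases 591 lie inside CCND2, also passed the floor, with 60 DMSO and 47 untreated reads. It stood more than 2-fold lower, at -1.87 (interval -2.46 to -1.30), and RefSeq lists only CCND2 over it. The SLC35A2 window, with 1777 bases inside PIM2, stood at -0.50 (interval -0.70 to -0.30). Both windows lie mostly outside these genes and were added with their values known. The stretches inside CISH, SOCS2, CCND2 and CCND3 were chosen with their values known, and with 1 library each none of the ratios has a test.

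**Figure D4:**
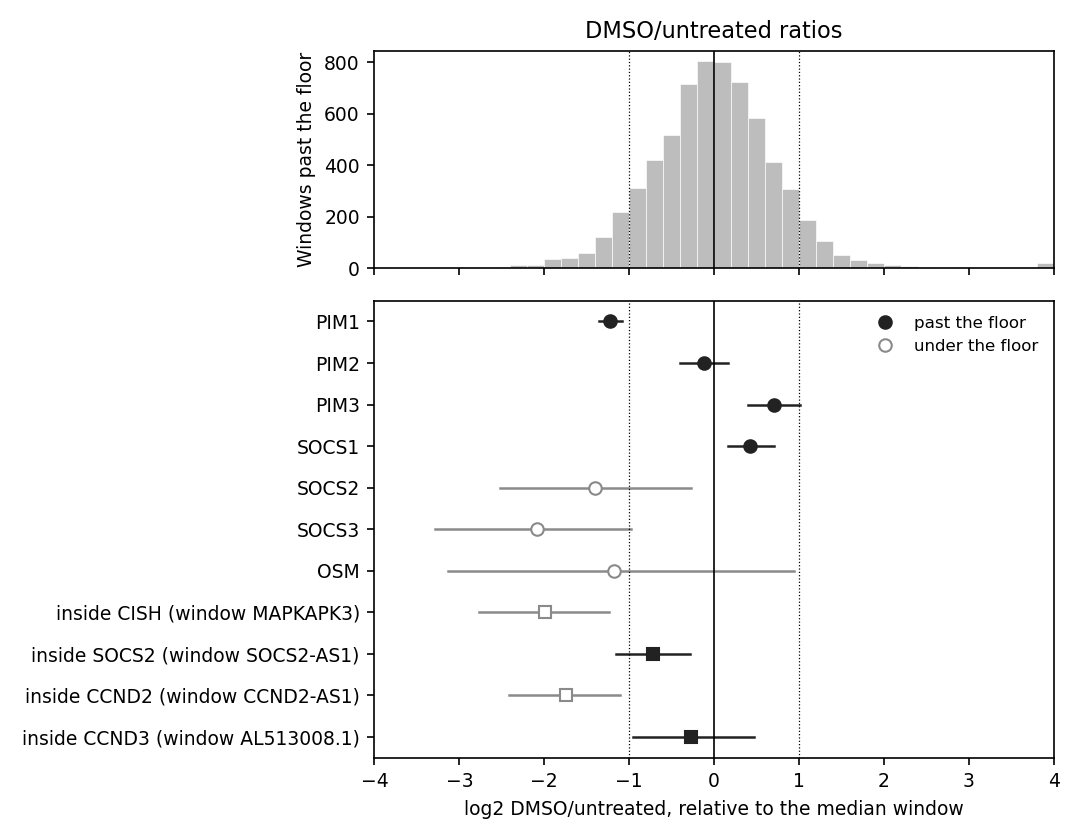
Upper panel, number of windows past the floor by log2 DMSO/untreated ratio relative to the median window, with ratios beyond 4 in either direction placed in the outermost bins; lower panel, the same ratio of each gene (circles) and of stretches inside genes (squares) with exact 95% intervals, open symbols being under the floor and dotted lines marking 2-fold. PIM1 lies at -1.22, PIM2 at -0.12, PIM3 at 0.70 and SOCS1 at 0.43, and the stretch inside CISH lies at -1.99.

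Genes upstream in the same pathway were mostly read at their starts. Of 24 genes for cytokine receptors, JAKs, STAT5, their regulators and BCR-ABL adaptors, 14 passed the floor, where 17.9% of all windows did. With DMSO 1 of these 14 stood higher by 2-fold or more and 1 lower, shares close to the 7.04% and 7.97% of all windows past the floor, and their median was -0.15. STAT5A had 791 DMSO reads and 320 untreated reads (ratio -0.93, interval -1.12 to -0.74). STAT5B had 66 and 64 in 1136 own bases (ratio -2.18), and was the gene at least 2-fold lower. The adaptor gene CRKL stood at -0.15, and BCR, the partner of ABL1 in the fusion kinase, was the gene at least 2-fold higher, at 1.73. The erythropoietin receptor gene EPOR, a source of STAT5 activation in erythroid cells, had 139 DMSO and 35 untreated reads and a ratio of -0.25, and was named after its values were seen.

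Other known STAT5 targets were read in part. Of 12 such genes, 7 reached 1 CPM in both libraries, where 34.7% of all windows did. The floor was passed by 3, where 17.9% of all windows did. All 3 lay below the median window: the transferrin receptor gene TFRC at -0.79, the differentiation inhibitor gene ID1 at -1.65 and the survival gene MCL1 at -0.24. ID1, with 690 DMSO and 460 untreated reads, was the 1 of the 3 at least 2-fold lower, where 7.97% of windows past the floor were. BCL6, whose promoter also holds the STAT motif 4 times, had 18 DMSO and 13 untreated reads in 2040 own bases (ratio -1.73, interval -2.88 to -0.62). Of 14 windows for further SOCS genes, SOCS box partners and partners of D-type cyclins, 10 had under 1 kb of their own. The floor was passed by 2 of the 14, against 17.9% of all windows: SOCS6 at 0.94 (227 DMSO and 25 untreated reads) and SOCS7 at 0.49 (146 and 22). The CDK inhibitor gene CDKN2D had 75 and 23. The STAT motif was found in the promoter of 1 of 8 other STAT5 targets, 2 of 19 signalling genes, 1 of 11 SOCS and cyclin partners and 1 of 5 oncostatin M receptor genes with a sequence, against 7.66% of all promoters. Of the marker lists, 4 of 10 neural, 1 of 9 monocytic, granulocytic and lymphoid and 0 of 7 erythroid genes with a sequence held it.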

How the data were processed

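For the 2 PRO-seq libraries, the submitters' processing notes name Bowtie2 2.3.5, featureCounts 2.0.1 and the build hg38; further settings are not given in the sources used here. The deposited table holds read counts per 6000-base window and, per the file headers, the authors' TPM and their mean, which were not used further. CPM and reads per kb of unshared bases were computed from the deposited counts. Ratios used edgeR 4.0.16 TMM factors (R 4.3.3), a prior count of 0.5 and centring on the median of the 6591 windows past the floor; at equal TMM level there were 3.81 DMSO reads per untreated read. Shares and ratios have exact Clopper-Pearson intervals and counts exact Poisson intervals. No test was possible with 1 library per group. The ratio procedure was also run on simulated Poisson counts, and no result given here rests on that run. Both simulated libraries came from 1 profile averaged over the real libraries, so the run did not cover their unequal ribosomal RNA shares. It also held no spread between cultures. All 10 members are named; other lists are represented by their 3 most read genes (mean CPM) and by the highest and lowest ratio past the floor. Members and lists were chosen with earlier results of these data known. Gene spans and promoters came from RefSeq GRCh38.p14. Alternatives covered scaling (library totals, DESeq2 1.42.0, upper quartile, totals without ribosomal RNA and mitochondrial windows), floor, prior count, thinning, centring and fold.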

Additional observations from a re-analysis of the deposited data

How the results depend on the processing

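No paired analysis was possible because there was a single library of each kind, so no replicate could be left out either. PIM1 stayed the 1 of 4 genes past the floor at least 2-fold lower under the other scalings, a prior count of 2, thinning of the DMSO library and a floor of 20 CPM and 400 reads. Without centring on the median window the count was 0 lower and 1 higher, PIM3, and the median was 0.46; PIM1 then stood at -0.91, PIM2 at 0.19 and SOCS1 at 0.74. With a floor of 1 CPM and 20 reads 3 of 6 genes were lower (PIM1, SOCS2 and SOCS3, median -0.56), where 14.8% of windows were; the SOCS2 bases counted there lie in SOCS2-AS1, and with the stretch inside SOCS2 added its ratio was -0.82; without a floor 4 of 9 were lower, with OSM, and 1 higher, CISH, whose counted bases lie in MAPKAPK3, with a median of -0.52. At 1.5-fold 1 gene, PIM3, was higher. Adding the neighbouring windows' bases that lie in CISH, SOCS2 and CCND2, an alternative chosen after seeing the data, left 1 of 5 genes lower and a median of -0.12. Shares within the PIM family stayed within their intervals under thinning. Among the inhibitor genes, shares by reads per window were 0.577% for CISH, 95.3% for SOCS1, 2.42% for SOCS2 and 1.73% for SOCS3 with DMSO, and 83.3% for SOCS1 and 8.97% for SOCS3 in untreated cells; thinning gave SOCS1 64.0% with DMSO. Of the 10 genes, 5 reached 5 CPM in both libraries. Apart from the floor of 1 CPM and 20 reads, no share of all windows is given for these alternative settings. The counts of genes at those settings are therefore description only.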
